A study of Mus musculus with 4 samples.

Results

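The 10 transporters described here carry digested sugars, peptides, amino acids and citrate into or out of the absorptive cells of the gut. They are the genes Slc5a1, Slc2a2, Slc2a5, Slc15a1, Slc6a19, Slc6a20a, Slc7a9, Slc3a1, Slc1a1 and Slc13a2, chosen by name with no threshold on level, and all 10 were found among the 17505 genes of the deposited table. RNA from the intestine was sequenced on the BGISEQ platform in 4 libraries from C57BL/6 mice. In Vil-CREPTKO mice (2 libraries) a villin-driven Cre deletes a floxed exon of CREPT, the gene Rprd1b, in the intestinal epithelium, so that other cells keep the gene. WT mice (2 libraries) are labelled wildtype. In the cross that the study describes, CREPT fl/fl mice with and without villin-Cre were mated, so WT littermates there carry the floxed alleles and no Cre. Both groups received 10 Gy of abdominal X-rays and were left for 3 days, and no unirradiated library is used here. Mice of both sexes aged 6 to 8 weeks were used across the study. The stretch of intestine that was taken is not given. A figure legend of the study calls the irradiated samples crypts where the labels say intestine. Its methods list crypts, and/or intestines for the irradiated mice, as RNA sources. How much villus the libraries hold is thus not settled. The levels are FPKM, the fragments of a gene relative to its transcript length and to the mapped fragments of the library, so they can be compared between genes.

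Enterocytes take up nutrients through a brush border of microvilli and release them through the basolateral membrane. Hydrolases of the brush border split disaccharides and peptides, and transporters beside them then import the products. Most of these importers are driven by sodium or protons, and a sodium pump in the basolateral membrane keeps the sodium gradient. The genes are turned on as cells leave the crypt and move onto the villus, and many of them differ in level along the length of the gut.

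Promoter sequence is shown for the 3 transporters on which the comparison turns. These are Slc13a2, the single transporter that was called, and the subunits Slc7a9 and Slc3a1, whose levels lay on opposite sides of WT. Each run is the 250 bases before the transcript start, 5′ to 3′ on the gene's strand, from RefSeq on GRCm38.p6. Capitals mark exact matches, on either strand, to 5 short motifs. The homeodomain factor HNF1 is known to bind around GTTAAT, the nuclear receptor HNF4 around CAAAGTCC, the intestinal homeodomain factors of the CDX family around TTTATG and the zinc finger factors of the GATA family around AGATAA, while the general transcription machinery binds the TATA box, searched as TATAAA.
Slc13a2, chr11:78422235-78422484, minus strand: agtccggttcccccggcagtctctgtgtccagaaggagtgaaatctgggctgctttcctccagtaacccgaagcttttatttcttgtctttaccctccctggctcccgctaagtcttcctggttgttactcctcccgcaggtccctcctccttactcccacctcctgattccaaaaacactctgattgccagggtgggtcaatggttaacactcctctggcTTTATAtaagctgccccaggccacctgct
Slc7a9, chr7:35448842-35449091, plus strand: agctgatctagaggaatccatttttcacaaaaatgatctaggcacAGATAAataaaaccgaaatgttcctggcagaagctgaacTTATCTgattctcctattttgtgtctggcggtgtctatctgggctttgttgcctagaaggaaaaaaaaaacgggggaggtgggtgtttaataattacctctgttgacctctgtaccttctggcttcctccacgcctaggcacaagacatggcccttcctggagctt
Slc3a1, chr17:85028097-85028346, plus strand: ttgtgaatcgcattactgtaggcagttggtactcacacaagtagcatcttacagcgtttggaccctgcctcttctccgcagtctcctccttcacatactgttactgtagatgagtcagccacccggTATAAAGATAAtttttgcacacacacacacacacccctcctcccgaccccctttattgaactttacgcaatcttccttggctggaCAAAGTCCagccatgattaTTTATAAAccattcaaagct
The Slc13a2 stretch held a match to TATAAA on the opposite strand (TTTATA as printed) at position -29, counted back from the transcript start. On the gene's own strand the letters there also read TATATAAG, which the exact search for TATAAA does not mark. The Slc7a9 stretch held a pair of GATA cores, and this start lies inside the span that RefSeq gives the gene, which begins at 35448727. A second Slc7a9 window, which begins at 35448929 and is not printed, held 0 matches to the 5 motifs. The Slc3a1 stretch held a GATA core, an HNF4 core at -39 and 3 TATA box matches. Of these, the match at -124 overlaps the GATA core and those at -20 and -18 overlap each other. Searched with the 50 bases after the start, windows of 300 bases held a TATA box for 2 of the 10 transporters, against 13.6% of all 32851 promoter windows. The HNF1 core was in 2 (7.1% of all windows), in Slc6a20a and, just past the start and so not printed, in Slc3a1. The GATA core was in 2 (11.2%), the HNF4 core in 1 (1.42%) and the CDX core in 0 (11.9%). These are matches of letters and nothing more.

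The libraries also differed in markers of other tissues. Rprd1b, measured over the whole gene and not at the deleted exon alone, was at 4.01 and 3.93 FPKM in Vil-CREPTKO and at 5.99 and 7.19 FPKM in WT, which did not pass the test (limma adjusted p = 0.129). Enterocyte markers were abundant in all libraries, with 23802 to 27982 FPKM summed over 10 genes in Vil-CREPTKO and 25441 to 26238 FPKM in WT. Apoa1 and Apoa4 carried much of these sums, and the 10 genes did not move together. Both Vil-CREPTKO values lay above both WT values for 4 (31.9% of all genes tested), below them for 3 (22.1%), and 3 overlapped. Alpi was at 577 and 2514.5 FPKM in Vil-CREPTKO and 3207 and 2887 FPKM in WT. Fabp1 was at 2177 and 2724 FPKM in Vil-CREPTKO and 1024 and 1318 FPKM in WT. The 7 duodenal and proximal markers summed to 298 and 898 FPKM in Vil-CREPTKO 1 and 2, against 1116 and 1078 FPKM in WT, with Pdx1, a duodenal transcription factor, at 1.42 and 27.7 FPKM in Vil-CREPTKO against 43.2 and 41.0 FPKM in WT. Vil-CREPTKO 1 was the lowest library for all 7 of these markers, with the smallest gaps for Gata4 and Heph. Vil-CREPTKO 2 was below both WT libraries for Pdx1, Cybrd1, Trpv6 and Slc46a1, above both for Slc40a1 and Heph, and between them for Gata4. The sum of 10 pancreatic acinar genes came to 19.5 and 10539 FPKM in Vil-CREPTKO, against 19562 and 7212 FPKM in WT, and that of 11 mucous genes of stomach and Brunner's glands to 27.4 and 114 FPKM in Vil-CREPTKO, against 39087 and 42424 FPKM in WT. The 6 ileal markers summed to 276 and 168 FPKM in Vil-CREPTKO 1 and 2, against 120 and 158 FPKM in WT. Slc51b carried most of the excess of Vil-CREPTKO 1 (198 and 78.3 FPKM in Vil-CREPTKO, 69.3 and 88.1 FPKM in WT). Slc51a was at 71.8 and 88.66 FPKM in Vil-CREPTKO and 48.85 and 68.8 FPKM in WT. Slc10a2 and Fabp6 were at 1.1 FPKM or less in every library. Of the colon list, Slc37a2 was at 1.13 and 17.8 FPKM in Vil-CREPTKO and 43.1 and 46.2 FPKM in WT. Mettl7b was at 8.48 and 34.2 FPKM in Vil-CREPTKO and 72.1 and 78.4 FPKM in WT. Hoxb13 and Aqp8 were at 0.3 FPKM or less throughout. The 6 pan-epithelial genes (Epcam, Cdh1, Krt8, Krt18, Krt19 and Cdh17) summed to 8615 and 6927 FPKM in Vil-CREPTKO and 5434 and 5365 FPKM in WT. The part of these differences in the results below was not tested, and genotype and the tissue sampled cannot be told apart. In bulk tissue, fewer cells of a type and less RNA per cell cannot be told apart either.

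The transporters did not move as a block in irradiated Vil-CREPTKO intestine. The citrate and succinate carrier Slc13a2 was 4.50-fold higher than in WT. The carriers of peptides and neutral amino acids, Slc15a1 and Slc6a19, were 1.52-fold and 1.76-fold higher in the mean and did not pass the test, and the sugar carriers overlapped between the groups. Slc7a9, which exchanges cystine and dibasic amino acids, was 2.90-fold lower in the mean, while its partner subunit Slc3a1 was 1.39-fold higher, and neither passed. Once centred on pan-epithelial genes, Slc3a1 was about level with WT (log2 fold change -0.034). The comparison asks which of these genes differ in level between irradiated Vil-CREPTKO and WT intestine. Every gene that averaged 1 FPKM or more was tested with limma on log2(FPKM + 1). Log2 fold changes are Vil-CREPTKO minus WT on that scale, and for genes of low level they come out smaller than the true change. A gene was called at a Benjamini-Hochberg adjusted p under 0.05 with a log2 fold change above 1 or below -1.

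All 10 transporters averaged 1 FPKM or more and were tested. By limma 1 was called higher, beside 0.387% of all 11621 genes tested, and 0 were called lower, beside 1.69%. At an unadjusted p under 0.05, 5 were higher (10.2% of all genes) and 1 was lower (10.1%). Both Vil-CREPTKO values lay above both WT values for 5 of 10 transporters (31.9% of all genes tested), below them for 1 (22.1%), and the groups overlapped for 4. The median log2 fold change was 0.35 over the 10 and 0.06 over all genes tested. An exact permutation test of 2 libraries against 2 cannot give a p below 0.333, and the limma p-values draw on variances shared across genes. The libraries are stated to be biological replicates.

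**Figure D1:**
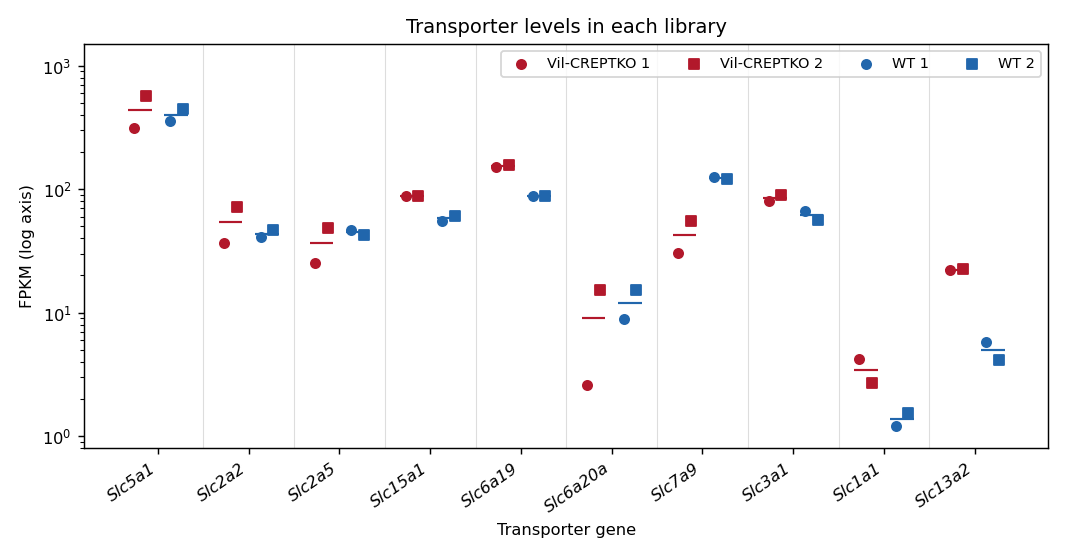
FPKM (log axis) of the 10 transporters in the 2 Vil-CREPTKO libraries (red) and the 2 WT libraries (blue), with circles for replicate 1, squares for replicate 2 and short lines for group means. Slc13a2 sits at 22.2 and 22.4 FPKM in Vil-CREPTKO, above 5.79 and 4.12 FPKM in WT, while Slc7a9 lies below both WT values.

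Slc5a1 led in every library, and Slc7a9 changed place in the order. In Vil-CREPTKO the mean levels ran from Slc5a1 (440.0 FPKM) over Slc6a19 (154 FPKM), Slc15a1 (88.1 FPKM), Slc3a1 (85.1 FPKM), Slc2a2 (54.3 FPKM), Slc7a9 (42.5 FPKM), Slc2a5 (36.9 FPKM), Slc13a2 (22.3 FPKM) and Slc6a20a (8.96 FPKM) to Slc1a1 (3.45 FPKM). In WT they ran from Slc5a1 (402 FPKM) over Slc7a9 (123 FPKM), Slc6a19 (87.6 FPKM), Slc3a1 (61.2 FPKM), Slc15a1 (57.9 FPKM), Slc2a5 (44.6 FPKM), Slc2a2 (43.7 FPKM), Slc6a20a (12.0 FPKM) and Slc13a2 (4.96 FPKM) to Slc1a1 (1.38 FPKM). Slc7a9 was thus number 6 in Vil-CREPTKO and number 2 in WT. In Vil-CREPTKO the values of the 2 libraries overlapped between Slc15a1 and Slc3a1, among Slc2a2, Slc7a9 and Slc2a5, and between Slc6a20a and Slc1a1, and in WT between Slc3a1 and Slc15a1 and between Slc2a5 and Slc2a2, so the order within those sets is within their spread. Together the 10 genes made up 0.129% and 0.199% of all FPKM in Vil-CREPTKO, against 0.14% and 0.154% in WT. Slc5a1 alone was 41.8% and 50.5% of the sum of the 10 in Vil-CREPTKO, against 44.9% and 50.6% in WT.

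The sugar carriers did not separate the groups. Slc5a1 (gene ID 20537, GRCm38.p6 chromosome 5, 33104219 to 33162699) encodes SGLT1, which imports glucose and galactose with sodium across the brush border. It was at 316 and 564 FPKM in Vil-CREPTKO, against 356 and 447 FPKM in WT. Vil-CREPTKO 1 was the lowest and Vil-CREPTKO 2 the highest of the 4 libraries, so the Vil-CREPTKO values enclosed those of WT. The means were 440.0 ± 176 FPKM and 402 ± 64.9 FPKM (SD, n = 2 each), with a log2 fold change of 0.08 (95% interval -0.78 to 0.94, adjusted p = 0.910 by limma).

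Slc2a2 (gene ID 20526, chromosome 3, 28697903 to 28728361) encodes GLUT2, the carrier through which glucose, galactose and fructose leave the cell. It was at 36.3 and 72.2 FPKM in Vil-CREPTKO, against 41.0 and 46.3 FPKM in WT. As for Slc5a1, the Vil-CREPTKO values lay on either side of the WT values (log2 fold change 0.23, 95% interval -0.63 to 1.09, limma adjusted p = 0.735). Slc2a5 (gene ID 56485, chromosome 4, 150119344 to 150144168) encodes GLUT5, the fructose importer of the brush border. It was at 25.0 and 48.9 FPKM in Vil-CREPTKO, against 46.6 and 42.7 FPKM in WT. Vil-CREPTKO 1 alone was low, at 56.0% of the WT mean, and the groups overlapped (log2 fold change -0.34, 95% interval -1.17 to 0.49, limma adjusted p = 0.594). Without Vil-CREPTKO 1 the log2 fold change of Slc2a5 was 0.13, and without Vil-CREPTKO 2 those of Slc5a1 and Slc2a2 were -0.34 and -0.26. The intervals of all 3 sugar carriers reach close to or past 1 in size in at least 1 direction. Changes up to about that size in that direction are thus not excluded by these libraries. The ratio of Slc5a1 to Slc2a2 was 8.69 and 7.81 in Vil-CREPTKO and 8.68 and 9.66 in WT.

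Slc15a1 (gene ID 56643, chromosome 14, 121459621 to 121505254) encodes PEPT1, which imports short peptides with protons. It was at 87.5 and 88.8 FPKM in Vil-CREPTKO, against 55.2 and 60.7 FPKM in WT. Both Vil-CREPTKO libraries were thus close together and above both WT libraries. The means were 88.1 ± 0.863 FPKM and 57.9 ± 3.87 FPKM (SD, n = 2 each), and the log2 fold change of 0.60 (SE 0.15, limma adjusted p = 0.127) did not pass. Its 95% interval ran from 0.22 to 0.97, below a log2 fold change of 1. With each library centred on the pan-epithelial genes, Slc15a1 was at 0.09.

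Slc6a19 (gene ID 74338, chromosome 13, 73679745 to 73700780) encodes B0AT1, the main sodium-driven importer of neutral amino acids in the gut. It was at 151 and 158 FPKM in Vil-CREPTKO, against 87.6 and 87.7 FPKM in WT. Both Vil-CREPTKO libraries were 1.72-fold or more above the higher WT library. The log2 fold change was 0.81 (SE 0.15, 95% interval 0.43 to 1.19), and limma gave an adjusted p of 0.0749. Over 16 alternatives the log2 fold change ran from 0.30 to 0.84, and Slc6a19 was above 0 in all 16 and called in 0. Its groups did not overlap, so only alternatives that change the scaling of the libraries could have turned that sign.

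Slc6a20a (gene ID 102680, chromosome 9, 123636907 to 123678832) encodes SIT1, an importer of proline and related imino acids. It was at 2.6 and 15.3 FPKM in Vil-CREPTKO, against 8.87 and 15.2 FPKM in WT. Vil-CREPTKO 1 was low, at 21.6% of the WT mean, and Vil-CREPTKO 2 was level with the higher WT library. The log2 fold change of -0.72 had a 95% interval of -2.59 to 1.15 (limma adjusted p = 0.615). It was -1.81 without Vil-CREPTKO 2, where Slc6a20a was called (limma adjusted p = 0.0113), and 0.37 without Vil-CREPTKO 1, so its sign rests on which library is kept (adjusted p from 0.0113 to 0.882 over 15 alternatives, and 0.000487 with pan-epithelial centring, whose p is not comparable). Its paralog Slc6a20b, with which reads could be shared, was at 0.1 FPKM or less in every library.

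Slc7a9 and Slc3a1 encode the light and the heavy subunit of a single exchanger that takes up cystine and dibasic amino acids, and loss of either subunit causes cystinuria in people. Slc7a9 (gene ID 30962, chromosome 7, 35448727 to 35466034) was at 30.2 and 54.8 FPKM in Vil-CREPTKO, against 125 and 121 FPKM in WT. Both Vil-CREPTKO libraries were far below WT, at 24.6% and 44.5% of the WT mean, and even the lower WT value was 2.22-fold above the higher Vil-CREPTKO value. The log2 fold change was -1.57 (SE 0.30, 95% interval -2.33 to -0.81), and the adjusted p of 0.0786 by limma missed the threshold. With a single Vil-CREPTKO library kept, Slc7a9 was called: without Vil-CREPTKO 1 it was at -1.15 (adjusted p = 0.0325) and without Vil-CREPTKO 2 at -1.99 (adjusted p = 0.00138). In fits that leave out a library the spread comes from the other group's pair, and the lone library is assumed to vary like it. The mucous genes of stomach and Brunner's glands were lower in the same libraries as Slc7a9 (11 of 11 called lower, beside 1.69% of all genes tested). So was the sum of the 6 goblet markers (2548 and 2584 FPKM in Vil-CREPTKO, 6245 and 5727 FPKM in WT), of which 2 were called lower, with Agr2 carrying most of the difference, while Muc2 was at 286 and 191 FPKM in Vil-CREPTKO and 188 and 152 FPKM in WT. Their part was not tested. Over 15 alternatives its adjusted p ran from 0.00138 to 0.447. Centring on the pan-epithelial genes, whose p is not comparable, gave 5.56e-11, and the log2 fold change was below 0 in all 16. With groups that did not overlap, only alternatives that change the scaling of the libraries could have turned that sign.

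Slc3a1 (gene ID 20532, chromosome 17, 85028347 to 85064241) was at 80.3 and 90.0 FPKM in Vil-CREPTKO, against 65.9 and 56.5 FPKM in WT. Here both Vil-CREPTKO libraries lay above both WT libraries, the opposite of its partner (log2 fold change 0.47, 95% interval 0.05 to 0.89, limma adjusted p = 0.212). The ratio of Slc7a9 to Slc3a1 was 0.376 and 0.609 in Vil-CREPTKO, against 1.89 and 2.15 in WT. In WT the light subunit was thus the more abundant transcript per length, and in both Vil-CREPTKO libraries the heavy subunit was. The mean log2 ratio was -1.06 in Vil-CREPTKO and 1.01 in WT, a difference of -2.07, and the exact two-sided permutation p of 0.333 is the smallest that 2 libraries against 2 can give. This ratio was chosen after the levels were seen, and since it is taken within a library, no scaling of whole libraries changes it.

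Slc1a1 (gene ID 20510, chromosome 19, 28835135 to 28913960) encodes EAAT3, an importer of glutamate and aspartate, and had the lowest mean of the 10 in both groups. It was at 4.23 and 2.67 FPKM in Vil-CREPTKO, against 1.21 and 1.54 FPKM in WT. Both Vil-CREPTKO libraries were higher, and Vil-CREPTKO 1 was the highest. The log2 fold change was 0.89 (SE 0.22, limma adjusted p = 0.131), and 1.14 without Vil-CREPTKO 2, where it was called (adjusted p = 0.0222, within a range of 0.0222 to 0.487 over 15 alternatives). Of the 5 amino acid carriers, 3 were higher in both Vil-CREPTKO libraries (31.9% of all genes tested), Slc7a9 was lower in both (22.1%), and Slc6a20a overlapped.

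Slc13a2 (gene ID 20500, chromosome 11, 78397276 to 78422281) encodes NaDC1, which imports citrate, succinate and related acids with sodium. It was at 22.2 and 22.4 FPKM in Vil-CREPTKO, against 5.79 and 4.12 FPKM in WT. The Vil-CREPTKO libraries differed by less than the WT libraries did, and the lower of them was 3.84-fold above the higher WT library. Slc13a2 rose by 1.98 on the log2 scale (SE 0.18, 95% interval 1.52 to 2.45, limma adjusted p = 0.0162), with means of 22.3 ± 0.134 FPKM in Vil-CREPTKO and 4.96 ± 1.18 FPKM in WT (SD, n = 2 each). The rise was the same size without Vil-CREPTKO 1 (1.99) and without Vil-CREPTKO 2 (1.98). Both of these libraries were low in the mucous genes of stomach and Brunner's glands, and the part of the tissue sampled was not tested. The sum of the 6 Paneth markers was also higher, at 9983 and 3972 FPKM in Vil-CREPTKO and 1778 and 1752 FPKM in WT, and its part in the rise was not tested. The call was kept in 13 of 16 alternatives, among them the adjusted p alone, under which no call can be lost. It was lost without WT 1 and without WT 2 (adjusted p = 0.164 and 0.158, log2 fold change 2.19 and 1.78) and with no filter on low values (adjusted p = 0.0553), with adjusted p from 0.00281 to 0.164 over 15 of the alternatives and 5.33e-06 with pan-epithelial centring, whose p is not comparable.

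**Figure D2:**
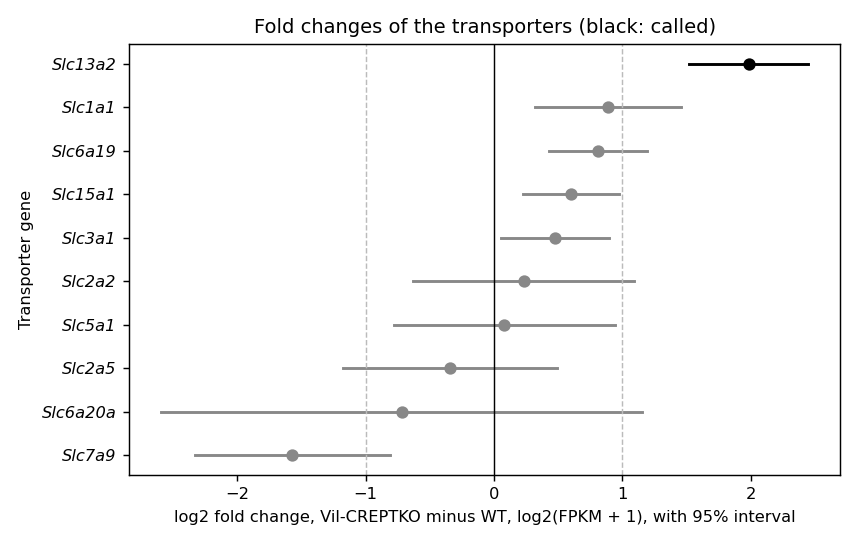
Log2 fold change of each transporter, Vil-CREPTKO minus WT on log2(FPKM + 1), with its 95% interval from limma (n = 2 libraries each). Black marks the gene that was called, Slc13a2 at 1.98, grey the 9 that were not, and dashed lines stand at -1 and 1.

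Within Vil-CREPTKO the transporters fell into those that were level in both libraries and those that differed. Vil-CREPTKO 1 and 2 stood at 448% and 452% of the WT mean for Slc13a2, at 151% and 153% for Slc15a1, at 172% and 180% for Slc6a19 and at 131% and 147% for Slc3a1. They stood at 21.6% and 127% for Slc6a20a, at 56.0% and 109% for Slc2a5, at 83.2% and 165% for Slc2a2 and at 78.6% and 141% for Slc5a1. For these last 4 genes Vil-CREPTKO 1 was the lower library. It was also the lower for Slc7a9 (24.6% and 44.5%) and the higher for Slc1a1 (308% and 194%). The median duodenal or proximal marker stood at 13.8% in Vil-CREPTKO 1 and 91.4% in Vil-CREPTKO 2, and whether the region sampled has a part in these differences was not tested. The median of the pan-epithelial genes was 156% and 125%, the reverse order.

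**Figure D3:**
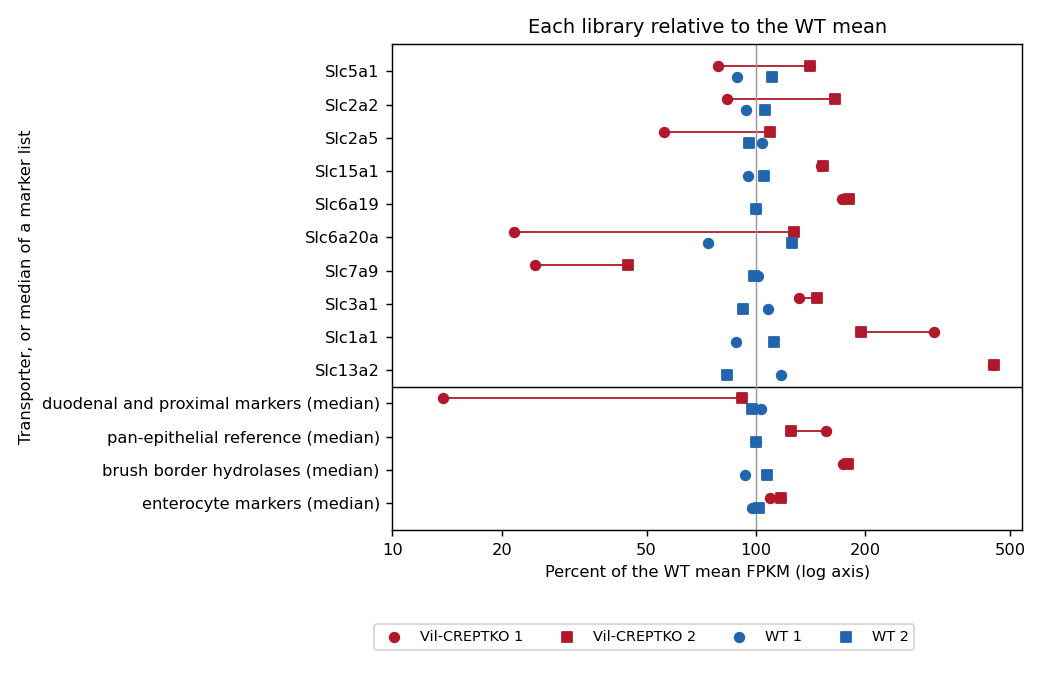
Each library as a percent of the WT mean (log axis) for the 10 transporters and, below the line, for the median of 4 gene lists, with Vil-CREPTKO in red and WT in blue, circles for replicate 1 and squares for replicate 2. The Vil-CREPTKO libraries coincide for Slc13a2 (448% and 452%) and lie far apart for Slc6a20a (21.6% and 127%).

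Relative to the rest of the epithelium the picture shifted down. With each library centred on the 6 pan-epithelial genes, the median log2 fold change of all genes tested was -0.45, a shift of -0.51. Slc13a2 was then still called higher, at 1.48, while Slc7a9 (-2.08) and Slc6a20a (-1.23) were called lower and Slc5a1, Slc2a2 and Slc3a1 were below 0. Centring gives the Vil-CREPTKO libraries a difference shared by all genes, and that fit had 466 prior degrees of freedom against 3.08, so its p-values are not comparable with the others. Slc15a1, Slc6a19 and Slc1a1 stayed above 0 there, at 0.09, 0.30 and 0.38.

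Other transporters of the same nutrients had few calls. Of 5 tested sugar carriers beside the 3 above, 0 were called by limma (0.387% of all genes tested higher, 1.69% lower). At an unadjusted p under 0.05, 3 of the 5 were higher (10.2% of all genes). The most abundant were Slc2a1, the widespread glucose carrier GLUT1 (31.9 and 23.4 FPKM in Vil-CREPTKO, 16.5 and 15.8 FPKM in WT, limma adjusted p = 0.137), and Slc5a9, a sodium-driven mannose carrier (13.2 and 12.9 FPKM in Vil-CREPTKO, 6.75 and 6.85 FPKM in WT, limma adjusted p = 0.0506). For both, the Vil-CREPTKO values lay above both WT values (31.9% of all genes tested). With each library centred on the pan-epithelial genes, their log2 fold changes were 0.22 and 0.34. Of 13 tested carriers of amino acids and peptides, 0 were called by limma, with a median log2 fold change of 0.08. At an unadjusted p under 0.05, 3 of the 13 were higher (10.2% of all genes). Slc3a2, a heavy subunit of basolateral exchangers, was at 94.6 and 101 FPKM in Vil-CREPTKO and 103 and 87.6 FPKM in WT (limma adjusted p = 0.910). Its light partner Slc7a7, which releases dibasic amino acids, was at 83.5 and 79.7 FPKM in Vil-CREPTKO and 55.4 and 56.7 FPKM in WT (limma adjusted p = 0.139). Centred on the pan-epithelial genes, Slc7a7 was at a log2 fold change of 0.03.

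The other carboxylate and anion carriers were lower on the median (log2 fold change -1.01, 5 tested). Of these, 1 was called lower (1.69% of all genes tested) and 0 higher (0.387%). At an unadjusted p under 0.05, 3 were lower (10.1%) and 1 was higher (10.2%). Slc25a1, the citrate carrier of the mitochondrial inner membrane, was at 42.9 and 43.3 FPKM in Vil-CREPTKO, against 110 and 103 FPKM in WT. It fell by 1.28 on the log2 scale (SE 0.14, limma adjusted p = 0.0251), so the 2 citrate carriers moved in opposite directions. The call of Slc25a1 was lost without WT 1 and without WT 2 (adjusted p = 0.300 and 0.217) and with the replicate number as a block (0.0822). Slc13a1, a sulfate carrier of the same family as Slc13a2 and looked at after its values were seen, was at 63.8 and 445 FPKM in Vil-CREPTKO and 373 and 641 FPKM in WT (log2 fold change -1.53, limma adjusted p = 0.408). Without Vil-CREPTKO 1 Slc13a1 was at -0.14.

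Among 7 tested partners and pumps 1 was called higher (0.387% of all genes tested) and 0 lower (1.69%). Rsc1a1, a regulator of SGLT1, was at 10.6 and 9.76 FPKM in Vil-CREPTKO, against 3.99 and 4.66 FPKM in WT. It rose by 1.07 on the log2 scale (SE 0.15, limma adjusted p = 0.0403), though that call was lost in 8 of 16 alternatives (adjusted p from 0.0215 to 0.345). For Slc5a1 itself the adjusted p was 0.910 by limma. At an unadjusted p under 0.05, 1 partner was higher (10.2% of all genes tested) and 0 were lower (10.1%).

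Of 12 brush border hydrolases, which make the substrates of these carriers, 1 was called higher (0.387% of all genes tested) and 0 lower (1.69%) by limma. At an unadjusted p under 0.05, 6 were higher (10.2%) and 0 were lower (10.1%). The median log2 fold change was 0.78, and 9 of 12 were higher in both Vil-CREPTKO libraries, against 31.9% of all genes tested. All 6 pan-epithelial genes were higher in both as well, with a median log2 fold change of 0.485, and their part was not tested. Enpep, an aminopeptidase that removes acidic residues, was at 98.9 and 105 FPKM in Vil-CREPTKO, against 22.4 and 25.5 FPKM in WT. It rose by 2.05 on the log2 scale (SE 0.15, limma adjusted p = 0.00963), and the call was lost without WT 1 and without WT 2 (adjusted p = 0.231 and 0.158). Of 7 genes that handle fructose and glucose inside the cell, 0 were called by limma. At an unadjusted p under 0.05, 3 of the 7 were lower (10.1% of all genes tested). Txnip, a glucose-responsive regulator on this list but not among those 3, was at 131 and 100 FPKM in Vil-CREPTKO and 132 and 130 FPKM in WT (limma adjusted p = 0.610). Of 13 regulators of epithelial differentiation 0 were called by limma and 2 were higher at an unadjusted p under 0.05 (10.2% of all genes). Elf3 was at 285 and 266 FPKM in Vil-CREPTKO and 279 and 247 FPKM in WT, and Hnf4a at 206 and 155 FPKM in Vil-CREPTKO and 135 and 131 FPKM in WT (limma adjusted p = 0.859 and 0.314).

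**Figure D4:**
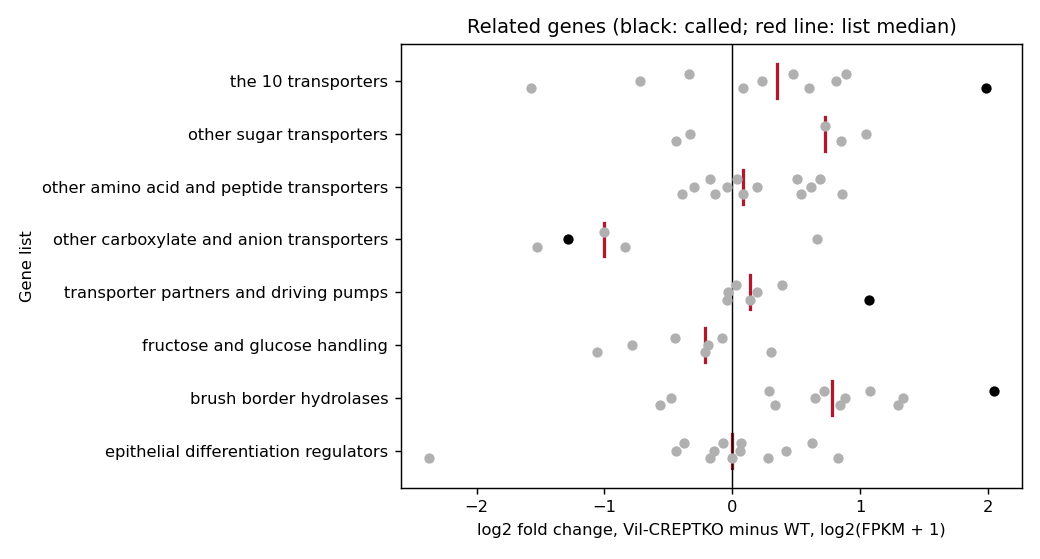
Log2 fold changes (Vil-CREPTKO minus WT, log2(FPKM + 1)) of the tested genes of 8 lists, with genes called by limma in black, others in grey and list medians as red lines. The medians run from -1.01 for the other carboxylate and anion transporters to 0.78 for the brush border hydrolases.

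Genes with the most similar pattern were sought for 3 of the transporters, among the 7576 genes that averaged 5 FPKM or more. Likeness was the root mean square difference in log2(FPKM + 1) over the 4 libraries, after each gene's own mean was subtracted. Nearest to Slc5a1 were Ggt1, a gamma-glutamyltransferase (0.0277), Aadac, an esterase (0.0313), and Akr1e1 (0.0388). Nearest to Slc15a1 were Eps8, an actin-capping protein of microvilli (0.022), Gusb, a lysosomal enzyme (0.0287), and Muc13, a membrane mucin (0.0293). For Slc13a2 the nearest genes were farther off: Reg3b, an antibacterial lectin (0.168), Ereg, a growth factor of the EGF family (0.193), and Enpep (0.21). The measure is not scaled to the size of a gene's differences, which were larger for Slc13a2, so distances are not comparable between the transporters. With 4 libraries such likeness describes these samples only.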

How the data were processed

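Total RNA from irradiated tissue, labelled intestine and called crypts in a figure legend of the study, was sequenced in 2 Vil-CREPTKO and 2 WT libraries. The authors aligned the reads to reference transcripts with Bowtie2 and estimated levels with RSEM, and they deposited FPKM values. Submitters' processing notes also list HISAT and mm10, and the sources used here give no version of these tools. Steps of the low FPKM values correspond to about 18000000 to 18600000 fragments per library, but only 51.4% to 60.1% of them came within 0.1 of whole reads, so no count model was run.

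Genes were named from RefSeq GRCm38.p6 (17473 of 17505 IDs matched). The 11621 genes averaging 1 FPKM or more were tested on log2(FPKM + 1) with limma 3.58.1 (R 4.3.3, two-sided, variance trend, 2 residual and 3.08 prior degrees of freedom) and Benjamini-Hochberg adjustment. The test was checked on simulated data. Calls required an adjusted p below 0.05 together with a log2 fold change beyond 1 in size. Alternatives varied the pseudocount, filter, scaling, variance model, call rule (adjusted p alone), replicate block and libraries kept. The text names all 10 transporters, from each related list the called genes (up to 4) or the 2 most abundant (one such gene is not reported here), and the 3 genes most like Slc5a1, Slc15a1 and Slc13a2. Members and lists were chosen with earlier results of these data known.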

Additional observations from a re-analysis of the deposited data

How the results depend on the processing

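Over all genes tested, 241 were called (45 higher, 196 lower), 1 transporter and 3 related genes (2 higher, 1 lower) among them. A pseudocount of 5 gave 141 over all genes. No filter on low values gave 78 over all genes and 0 transporters. Centring on the pan-epithelial genes gave 1387 over all genes (82 higher, 1305 lower), 3 transporters and 9 related genes. Leaving out 1 library in turn gave 4 to 900 over all genes, 0 to 4 transporters and 0 to 15 related genes. The lowest counts came without a WT library (4 and 6 over all genes) and the highest without Vil-CREPTKO 2 (900, of which 408 were higher).

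With the replicate number as a block, 122 genes were called over all genes (14 higher, 108 lower), 1 transporter and 1 related gene. The labels give same-numbered libraries no shared animal, and 2 pairs are too few to check it.

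Signs turned under several settings, the causes of which were not tested. Centring on the pan-epithelial genes put Slc5a1 at -0.42, Slc2a2 at -0.28, Slc3a1 at -0.034, Slc3a2 at -0.47, Elf3 at -0.44 and Hnf4a at -0.083. Rescaling without the stomach mucous and pancreatic genes, which moved the median of all genes by -0.12, put Slc5a1 at -0.053, Slc3a2 at -0.094 and Elf3 at -0.067. With 1 library left out in turn, Slc5a1 ran from -0.34 (without Vil-CREPTKO 2) to 0.50, Slc2a2 from -0.26 (without Vil-CREPTKO 2) to 0.72, Slc2a5 from -0.81 to 0.13 (without Vil-CREPTKO 1), Slc6a20a from -1.81 to 0.37 (without Vil-CREPTKO 1), Slc3a2 from -0.074 (without WT 2) to 0.15 and Elf3 from -0.022 (without WT 2) to 0.16. Slc5a1 was also at -0.08 without WT 1, and Slc3a2 at -0.0039 without Vil-CREPTKO 2. Slc15a1, Slc6a19, Slc1a1 and Slc13a2 stayed above 0 and Slc7a9 below 0 in every alternative run. The groups did not overlap for these genes, so only settings that change the scaling of the libraries could have turned their signs. Changes of filter, variance model, call rule or replicate block leave the log2 fold change as it is. With 2 libraries per group, only changes that are large beside the spread could be called.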
